A study of Saccharomyces cerevisiae with 9 samples.

Results

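HSP12 (YFL014W), RTC3 (YHR087W), DDR2 (YOL052C-A), SIP18 (YMR175W), GRE1 (YPL223C) and STF2 (YGR008C) are short yeast genes that encode small, mostly hydrophilic proteins made under stress. They are 6 of the 6942 features of the deposited value table and were taken by their row IDs. They were selected on the strain difference, because HSP12, RTC3 and DDR2 had smaller ratios in the ckb12 mutant than in wild type, so the values of that contrast are given below as a description, and counts of calls in it are given beside the share over all features with nothing read from them. The responses within each strain make up that difference and so are not fully independent of the choice.

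Budding yeast meets a sudden rise in external salt by losing water, activating the Hog1 kinase of the high-osmolarity glycerol pathway, and switching on a broad program of stress genes. Much of that program is driven through the stress response element, which is bound by the related activators Msn2 and Msn4, whereas a narrower group of osmotic genes depends on Hog1 and factors such as Hot1 and Sko1. Hydrophilins are small proteins rich in glycine and other hydrophilic residues, most of which are made during osmotic stress or drying, and which are thought to protect other proteins or membranes when water is scarce.

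The ratios came from BY4741 wild type (WT, 7 cultures) and from ckb12, a BY4741 strain deleted for both CKB1 and CKB2 (2 cultures). CKB1 and CKB2 encode the regulatory subunits of casein kinase 2. All cultures grew in rich medium (YPD) at 30 °C and were sampled before and 30 min after exposure to 0.7 M NaCl, and RNA of both states was labelled and put together on a 2-colour tiled array, 1 array per culture. Each value is therefore the log2 of stressed over unstressed RNA of the same culture, and it holds no expression level, so a gene with a larger ratio need not be the more abundant one. The labels pair WT replicate 8 with ckb12 replicate 1 (set A) and WT replicate 9 with ckb12 replicate 2 (set B), mark WT replicate 10 with letter C, replicate 11 with D and replicate 12 with E, and mark WT replicates 1 and 2 with none. The labels of the treated channel name the same dye on every array, so a dye effect of a feature and its response to salt cannot be told apart. The RNA was of whole cultures, so a change in all cells and a larger change in some of them cannot be told apart either.

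Between 6205 and 6812 features had a value on an array, 6129 had one on all 9, and array medians lay between -0.00118 and 0.00016. The arrays correlated with each other at 0.856 to 0.977 across features. WT replicate 12 had the widest spread of ratios, with a median absolute deviation of 1.07 against 0.877 to 0.957 on the other WT arrays and 0.951 and 0.994 on the ckb12 arrays. One label field of that sample adds the word mutant, while its title and genotype give WT, and the values that bear on it are given below. The ratios of the deleted genes were 0.97 and 0.44 for CKB1 and 0.76 ± 0.07 (SD, n = 2) for CKB2 in ckb12, and a ratio of 2 states of the same strain does not check a deletion.

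In WT, salt raised all 6 genes, from 12.6-fold for STF2 to 350-fold for HSP12 as the antilog of the mean log2 ratio. The 5 genes with a value on every array were all called higher (limma, moderated test of the 7-array mean against 0, Benjamini-Hochberg adjusted p below 0.05 over 6129 features), where 36.5% of all features were called higher. HSP12 had the highest mean ratio of the 6129 features, RTC3 was at place 3, DDR2 at place 9, GRE1 at place 19 and STF2 at place 83. The median feature stood at -0.04. In ckb12 the same 5 genes were again called higher, where 27.4% of features were, and their order was different, with GRE1 at place 8, RTC3 at 21, HSP12 at 23, DDR2 at 29 and STF2 at 72.

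**Figure D1:**
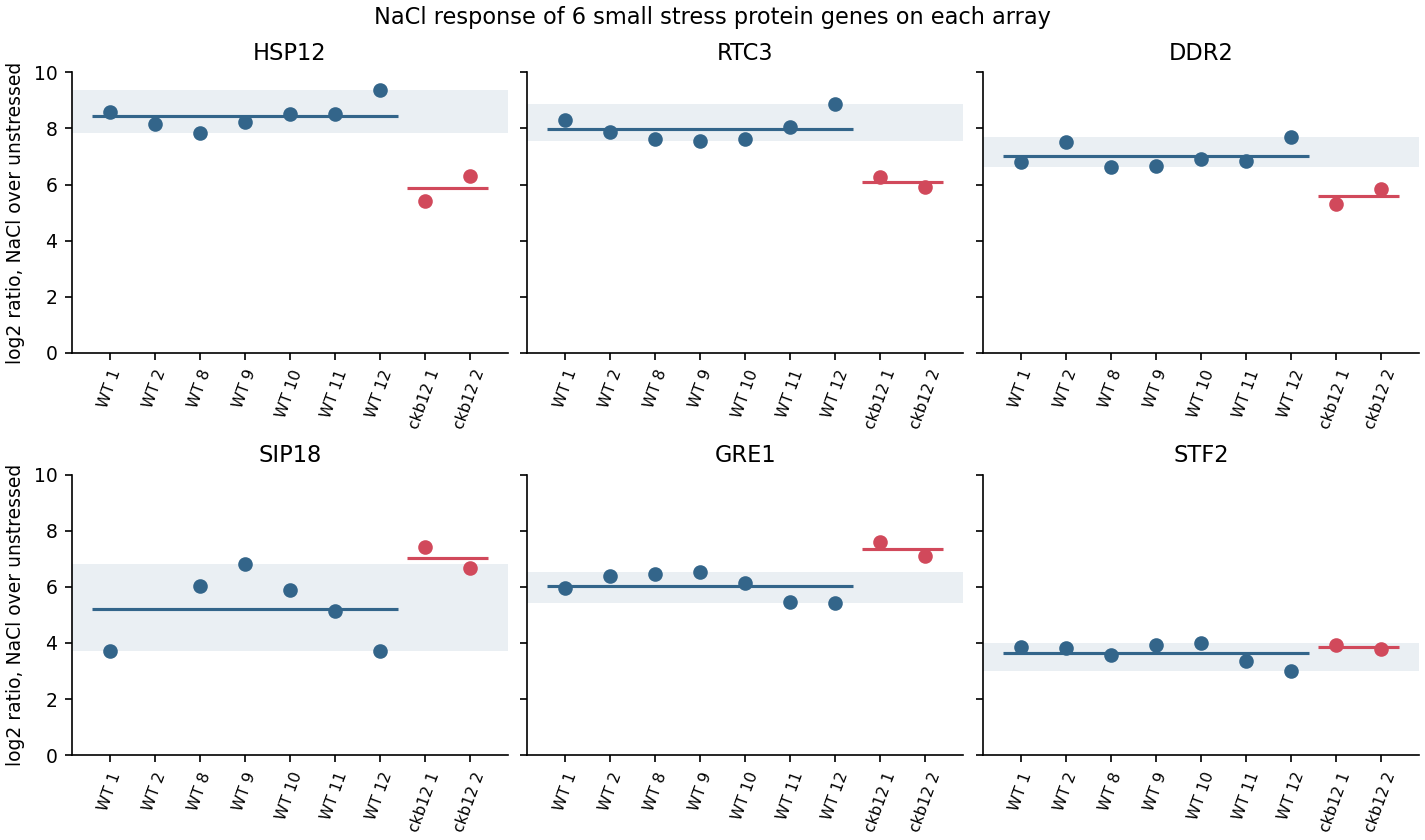
Log2 ratio of stressed over unstressed RNA (y axis) on each array (x axis) for the 6 genes, with WT in blue, ckb12 in red, the mean of each strain as a line and the WT range shaded. HSP12, RTC3 and DDR2 lie below the WT range on both ckb12 arrays, GRE1 lies above it on both, and SIP18 (blank on WT replicate 2) and STF2 reach into it.

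HSP12 encodes a very small, hydrophilic protein related to the late embryogenesis abundant proteins of plants, which folds into helices at membranes and is one of the most strongly induced products of many stresses. On the 7 WT arrays its log2 ratio had a lowest value of 7.84, a median of 8.51 and a highest value of 9.36. The mean was 8.45 ± 0.48 (SD, n = 7) with a standard error of 0.150 in the fit (limma adjusted p = 6.6e-11). It ranked between 1 and 3 among all features on every WT array.

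On the ckb12 arrays HSP12 stood at 5.40 and 6.32, ranks 33 and 19 of those arrays. Its mean of 5.86 ± 0.65 (SD, n = 2) is a 58.1-fold rise (limma adjusted p = 4.7e-08). Salt thus still raised HSP12 in the mutant, and the higher ckb12 array lay 1.52 below the lowest WT array. The strain difference, ckb12 mean minus WT mean, was -2.59, a response 6.03-fold smaller, and this was the lowest strain difference of the 6129 features. Within the sets the difference was -2.44 in set A and -1.89 in set B.

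RTC3 encodes a small stress-induced protein with a fold like that of the SBDS ribosome maturation factor, and its function is not well understood. Its WT ratios had a lowest value of 7.54, a median of 7.87 and a highest value of 8.88. The WT mean was 7.98 ± 0.48 (SD, n = 7), a 253-fold rise (limma adjusted p = 9.6e-11). RTC3 ranked between 2 and 8 on the WT arrays.

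The ckb12 arrays gave 6.26 and 5.93 for RTC3, with a mean of 6.10 ± 0.24 (SD, n = 2), a 68.4-fold rise (limma adjusted p = 2.0e-08). Both values lay below all WT values, by 1.28 or more, at ranks 23 and 25. The strain difference was -1.89 over all arrays, a 3.70-fold smaller response, with -1.34 in set A and -1.61 in set B. HSP12 showed its larger set difference in set A and RTC3 in set B, so the order of the ckb12 arrays was opposite in these genes.

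DDR2, first found as a DNA damage responsive gene and long used to study the stress response element, encodes a very small protein of unknown function. Its WT ratios had a lowest value of 6.63, a median of 6.83 and a highest value of 7.70, on WT replicate 12. The mean was 7.01 ± 0.43 (SD, n = 7), a 129-fold rise (limma adjusted p = 1.0e-10), and the ranks ran from 3 to 19.

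DDR2 reached 5.31 and 5.84 on the ckb12 arrays, a mean of 5.58 ± 0.37 (SD, n = 2) or a 47.7-fold rise (limma adjusted p = 2.2e-08). Both values were again below the WT range, by 0.78 for the higher of them, and the ranks were 36 and 28. Of the 3 genes it had the smallest strain difference, -1.43 over all arrays, a 2.70-fold smaller response, with -1.31 in set A and -0.83 in set B.

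SIP18 and GRE1 are related hydrophilin genes known for induction by salt, osmotic stress and drying, and the Sip18 protein binds phospholipids. SIP18 was the most variable of the 6. Its WT ratios were 3.71 on replicate 1, 6.02 on replicate 8, 6.81 on replicate 9, 5.89 on replicate 10, 5.13 on replicate 11 and 3.71 on replicate 12, and replicate 2 was blank. These 6 values averaged 5.21 ± 1.28 (SD, n = 6), a 37.1-fold rise, and their ranks ran from 15 to 112. The ckb12 arrays gave 7.41 and 6.65, a mean of 7.03 ± 0.53 (SD, n = 2) or 131-fold, at ranks 9 and 15. The blank kept SIP18 out of the fit over complete features, and in a limma fit that keeps missing values it rose in WT (adjusted p = 8.2e-06 over 6848 features, 6 arrays) and in ckb12 (adjusted p = 2.6e-05 over 6751 features).

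The ckb12 values of SIP18 overlapped the WT values, since WT replicate 9 stood at 6.81 and ckb12 replicate 2 of the same set at 6.65. The difference of the means was 1.82, whereas the set differences were 1.38 in set A and -0.16 in set B. The direction of the SIP18 difference thus changed between the sets.

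GRE1 was steadier. Its WT ratios had a lowest value of 5.43, a median of 6.14 and a highest value of 6.51, and the mean was 6.04 ± 0.46 (SD, n = 7), a 65.9-fold rise (limma adjusted p = 3.0e-10). On the ckb12 arrays GRE1 reached 7.61 and 7.11, a mean of 7.36 ± 0.35 (SD, n = 2) or 164-fold (limma adjusted p = 6.7e-09). Both lay above all 7 WT values, by 0.60 or more, in the deposited ratios. With the arrays scaled to an equal median absolute deviation the strains overlapped, ckb12 replicate 2 standing at 6.70 and WT replicate 9 at 6.89. The strain difference over all arrays was then 0.93. In the deposited ratios the strain difference was 1.32 over all arrays, a 2.49-fold larger response, at place 17 from the highest, with 1.17 in set A and 0.60 in set B. GRE1 moved from WT ranks of 11 to 37 to ranks of 6 and 12.

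STF2 encodes a hydrophilin that was first described as a factor stabilizing the inhibited mitochondrial ATP synthase and is also known for a role in survival of drying. It had the smallest response of the 6, with WT ratios of 3.0 at the lowest, 3.83 at the median and 3.99 at the highest. The WT mean was 3.65 ± 0.36 (SD, n = 7), a 12.6-fold rise (limma adjusted p = 1.5e-09). The ckb12 arrays gave 3.93 and 3.80, a mean of 3.86 ± 0.10 (SD, n = 2) or 14.6-fold (limma adjusted p = 7.5e-08), inside the WT range. The difference of the means was 0.21, with 0.37 in set A and -0.15 in set B, and it fell to -0.0044 once every array was brought to the same median absolute deviation.

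The strain comparison over all 9 arrays called 70 of 6129 features, 48 lower and 22 higher in ckb12. Of the 5 complete genes, 3 (HSP12, RTC3 and DDR2) were among the features called lower, where 0.783% of all features were, and 0 were called higher, where 0.359% were. Over 18 alternative settings the strain difference of HSP12 ran from -3.05 to -2.13. That of RTC3 ran from -2.21 to -1.72 and that of DDR2 from -1.74 to -1.17. In 1 of these settings, the replicate block by number, only replicates 1 and 2 of each strain were fitted. The calls did not hold in every setting, least often for DDR2. For 3 of the 5 complete genes the pair of ckb12 values was lower than each of the 7 WT values, as it was for 12% of features, and for 1, GRE1, it was higher than each of them, as for 5.32%. In the comparison of sets A and B alone, with the set as a block, 1 of 6600 features was called, 0.0152% of those tested, and none of the 6 was it (1096 features had an unadjusted p below 0.05). That count depended on the setting, since robust eBayes called 178 of the 6600 features, with HSP12, RTC3 and DDR2 among them. A fit of only the ORF-style features among the 6600 called 573, with these 3 and GRE1 among them. Both shares of called features are far above the 0.0152% of the main fit. The same contrast chose the genes, so nothing is read from these counts. Leaving out either ckb12 array left 0 features called over all arrays, and leaving out WT replicate 12 gave 142.

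**Figure D2:**
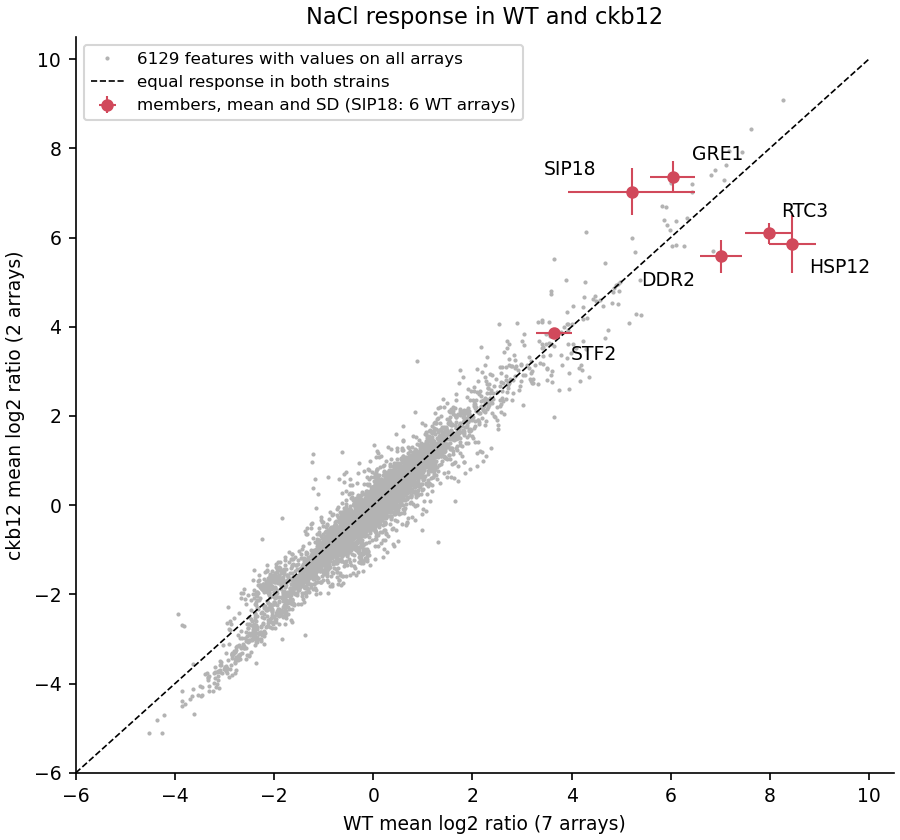
Mean log2 ratio in ckb12 (2 arrays, y axis) against that in WT (7 arrays, x axis) for 6129 features in grey and the 6 genes in red with SD bars, and the line of equal response. HSP12, RTC3 and DDR2 lie below the line, GRE1 and SIP18 above it, and STF2 next to it at 3.65 and 3.86.

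The order of the genes was nearly fixed in WT and was not that of ckb12. On every WT array HSP12 exceeded RTC3, by 0.24 to 0.87 with a mean of 0.47, and RTC3 exceeded DDR2 by 0.34 to 1.5 with a mean of 0.98. DDR2 exceeded GRE1 on all 7 WT arrays by 0.16 to 2.27, with a mean of 0.97 and an SD of the difference of 0.73. The order was looser below GRE1. The ratio of GRE1 was above that of SIP18 on 5 of 6 WT arrays (mean 0.77, range -0.30 to 2.25) and that of SIP18 above STF2 on 5 of 6 (mean 1.59, range -0.16 to 2.87). GRE1 and SIP18 as neighbours in the order therefore did not differ beyond the SD of their difference, 0.98 over 6 WT arrays.

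In ckb12 GRE1 led and HSP12 no longer did. The difference of HSP12 and RTC3 on the same array was -0.86 on ckb12 replicate 1 and 0.39 on replicate 2, so these neighbours had no common order there. HSP12 minus GRE1 was 2.41 on average in WT, from 1.40 to 3.93, and -2.21 and -0.79 on the ckb12 arrays. HSP12 minus SIP18 was 3.29 on average over 6 WT arrays, from 1.40 to 5.65, and -2.01 and -0.33 in ckb12. All WT arrays with both values thus had HSP12 ahead, and both ckb12 arrays had SIP18 and GRE1 ahead. These differences within an array do not depend on its centring, though they hold the contrast that chose the genes.

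**Figure D3:**
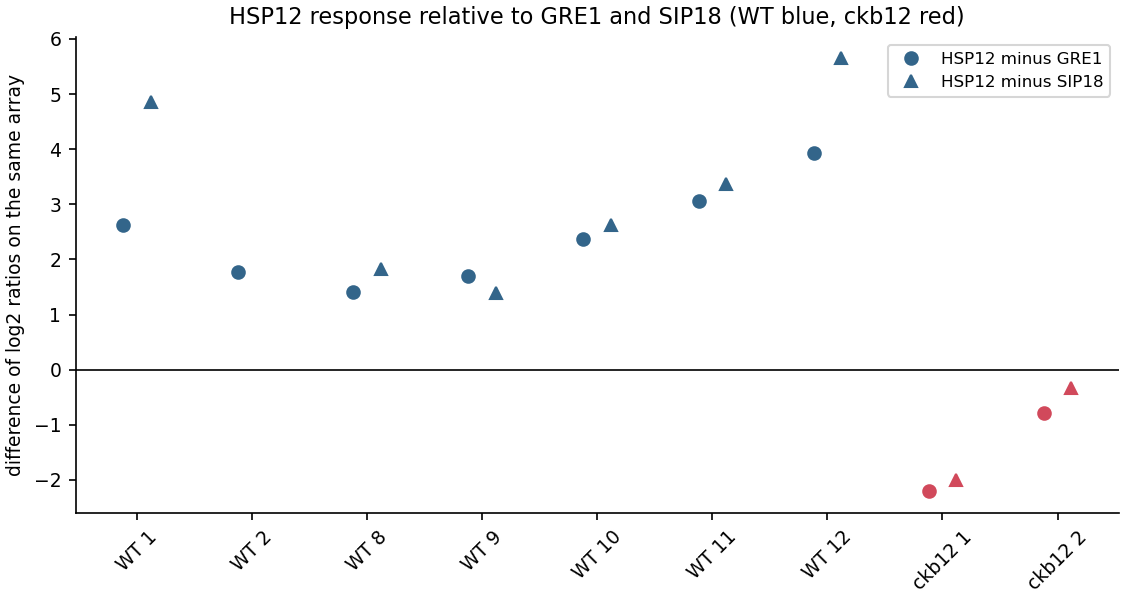
Difference of log2 ratios on the same array (y axis) for HSP12 minus GRE1 (circles) and HSP12 minus SIP18 (triangles) on each array (x axis), WT in blue and ckb12 in red. All WT points lie between 1.40 and 5.65 and the ckb12 points between -2.21 and -0.33.

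Among the WT arrays alone, the genes also varied in a pattern. The SDs of the 5 complete genes were larger than those of 80.1% (STF2) to 91.1% (RTC3) of features, against a median SD of 0.233. HSP12 and RTC3 were high on the same arrays, with Pearson's r = 0.878 over 7 WT arrays (exact permutation p = 0.0117, 0.0585 adjusted over 15 pairs, 2-sided) and Spearman's rho = 0.821 (exact permutation p = 0.0341, adjusted 0.102). Without the 2 arrays farthest from the HSP12 median r was 0.549. Here and below, the arrays left out were those farthest from the median of the first-named gene. Leaving them out narrows the range of that gene, so the lower r does not show that the relation rests on those arrays. HSP12 and GRE1 went opposite ways, with r = -0.806 (exact permutation p = 0.0101, adjusted 0.0585) and rho = -0.857 (exact permutation p = 0.0238, adjusted 0.102), and r = -0.744 without the 2 farthest arrays.

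RTC3 and SIP18 had the strongest relation of the 15 pairs, with r = -0.921 over 6 arrays (exact permutation p = 0.00278, adjusted 0.0417), rho = -0.943 (exact permutation p = 0.0167, adjusted 0.102) and r = -0.892 without the 2 farthest arrays. Of the 15 pairs 6 were positive and 9 negative, and the 9 negative ones were those that joined HSP12, RTC3 or DDR2 with SIP18, GRE1 or STF2. Scaling the arrays to an equal median absolute deviation turned 8 of these 9 positive, HSP12 with GRE1 to 0.529 and RTC3 with GRE1 from -0.799 to 0.483, and left RTC3 with SIP18 at -0.0716. The positive pairs kept their sign under this scaling, with HSP12 and RTC3 at 0.646. SIP18 and GRE1 went from 0.743 to 0.836, and GRE1 and STF2 from 0.755 to 0.913. Without the 2 farthest arrays, however, GRE1 and STF2 fell to -0.338 and HSP12 and DDR2 to -0.514, while the other positive pairs stayed positive. DDR2 and STF2, a negative pair, stood at 0.134 there. Leaving out WT replicate 12 turned 3 of the 9 negative pairs positive, HSP12 with STF2 from -0.609 to 0.166, DDR2 with GRE1 from -0.378 to 0.0807 and DDR2 with STF2 from -0.483 to 0.181. It also lowered HSP12 with DDR2 from 0.612 to 0.0324, RTC3 with DDR2 from 0.662 to 0.194 and SIP18 with STF2 from 0.518 to 0.137, whereas HSP12 with RTC3 was at 0.606, HSP12 with GRE1 at -0.705 and RTC3 with SIP18 at -0.960 without it. The points share the spread of each array, which differed most on WT replicate 12, where HSP12, RTC3 and DDR2 had their highest ratios, STF2 and GRE1 their lowest, and SIP18 was level with its lowest at 3.71.

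**Figure D4:**
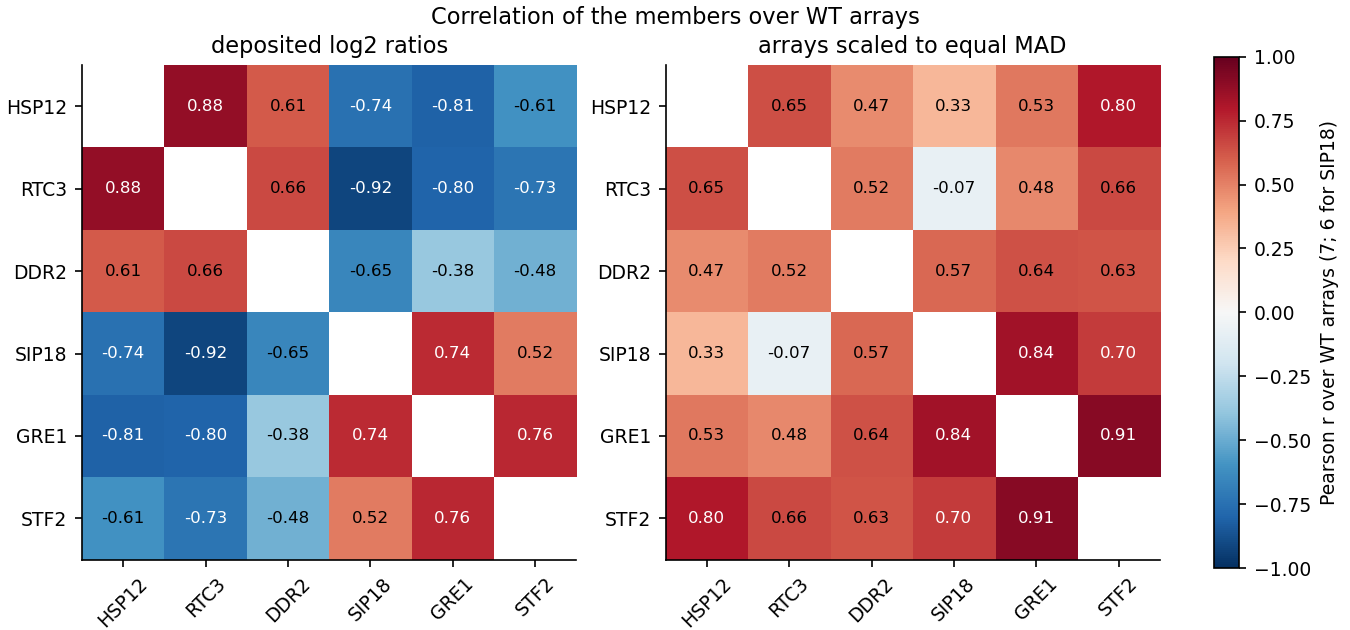
Pearson correlation (colour and number) between the 6 genes over 7 WT arrays (6 for SIP18), from the deposited log2 ratios on the left and after scaling the arrays to an equal median absolute deviation on the right. On the left the 9 pairs of HSP12, RTC3 or DDR2 with SIP18, GRE1 or STF2 are negative, and on the right 8 of them are positive.

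The set letter was the only batch the labels give. The 5 WT arrays with a letter and the 2 without differed by 0.12 for HSP12, -0.15 for RTC3, -0.22 for DDR2, -0.18 for GRE1 and -0.28 for STF2, letter minus none. None of these 5 was called (limma adjusted p between 0.689 and 0.916; with quantile normalization the differences were -0.37, -0.60, -0.69, -0.79 and -0.35 in the same order), where 0.457% of features (28) were and 807 had an unadjusted p below 0.05. SIP18 was higher by 1.80 with a letter, but only WT replicate 1 stood for those without (limma adjusted p = 0.481 in the fit that keeps missing values).

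DDR2 and STF2 each have a paralogue in the table. HOR7, the paralogue of DDR2, rose less than DDR2 in WT at 3.62 ± 0.54 (SD, n = 6) and had 3.34 ± 0.27 (SD, n = 2) in ckb12. Its set differences were -0.14 and 0.13, beside -1.31 and -0.83 for DDR2. TMA10, the paralogue of STF2, had 4.94 ± 0.60 (SD, n = 7, limma adjusted p = 3.1e-09) in WT and 4.95 ± 0.16 (SD, n = 2) in ckb12, with set differences of 0.82 and 0.44 beside 0.37 and -0.15 for STF2. The arrays were tiled, but how near-identical stretches were handled is not given in the sources used here. Ratios within a paralogue pair, or of the related genes SIP18 and GRE1, may therefore share signal.

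ROQ1 (YJL144W) and YNL190W, the other hydrophilin genes listed, moved in opposite directions. ROQ1, whose product redirects a ubiquitin ligase during stress, rose to 3.05 ± 0.48 (SD, n = 7, limma adjusted p = 2.2e-08) in WT and stood at 3.58 ± 0.01 (SD, n = 2) in ckb12. Both ckb12 values of ROQ1 were above all WT values, but by only 0.037, beside 0.60 for GRE1. Its strain difference of 0.53, which includes a low WT value of 2.05 on replicate 2, was not called (limma adjusted p = 0.436). YNL190W fell by 1.08 ± 0.24 (SD, n = 7, limma adjusted p = 1.1e-06) in WT, the opposite of all 6 genes, and had -1.26 ± 0.40 (SD, n = 2) in ckb12, a strain difference of -0.18 (limma adjusted p = 0.733).

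Beside the 6 genes stands a list of 20 other general stress genes that are known targets of Msn2 and Msn4, such as the catalase gene CTT1. All 20 rose in WT, with a median of 4.78 from 2.56 (DDR48) to 7.07 (CTT1), and all 20 rose in ckb12, with a median of 4.22 from 2.08 (HSP104) to 7.51 (TKL2). HSP12 and RTC3 were above the highest of the 20 in WT and below it in ckb12. None of the 20 was called in the strain comparison over all arrays. There 13 were lower and 7 higher in ckb12, with a median of -0.22 against -0.06 over all features, and the extremes were SOL4 at -1.16 (limma adjusted p = 0.0700) and ALD3 at 0.78 (limma adjusted p = 0.0711). In sets A and B alone 11 were lower and 9 higher, with a median of -0.11 against -0.05 over all features. Among the WT arrays, 15 of the 20 were lower with a set letter than without and 5 higher, with a median of -0.43 against -0.08. Over all arrays HSP12, RTC3 and DDR2 stood at -2.59, -1.89 and -1.43, below the range of the list. GRE1 at 1.32 stood above it. HSP12, RTC3 and DDR2 were selected for smaller ratios in ckb12, which set their place against the list. Nothing is read from that place, nor from the positions of HSP12 and RTC3 in each strain. Both ckb12 arrays were outside the WT range for 4 of the 20, below it for PGM2, SOL4 and GPH1 and above it for ALD3, which were named after their values were seen. As above, 12% of all features lay below and 5.32% above, so these shares of a short list are close to the background.

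**Figure D5:**
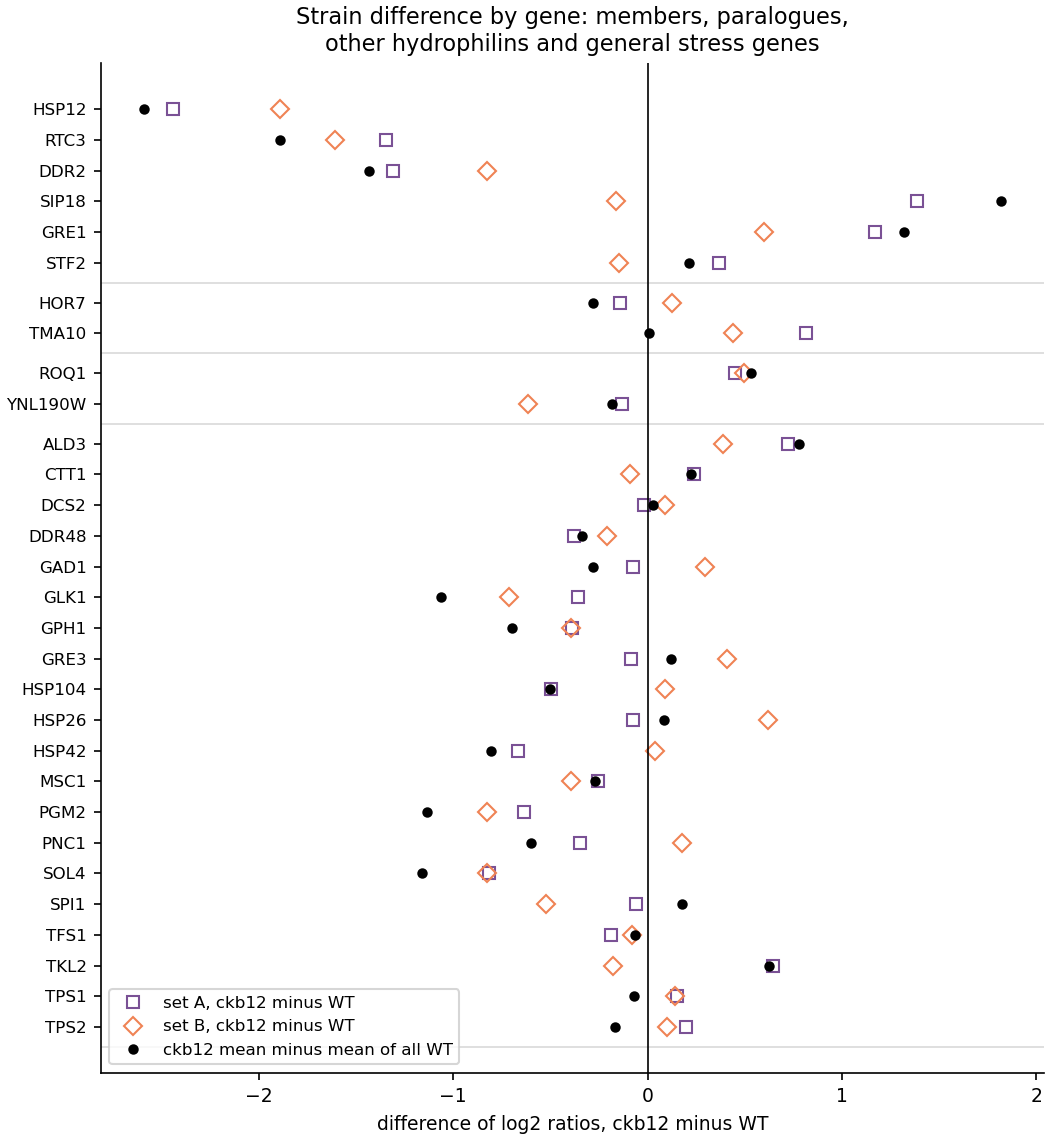
Strain difference of log2 ratios, ckb12 minus WT (x axis), for the 6 genes, the paralogues, the other hydrophilin genes and 20 general stress genes (y axis), as ckb12 mean minus mean of all WT arrays (black points), set A (squares) and set B (diamonds). HSP12 lies at -2.59, left of all 20 general stress genes, and SIP18 has its sets on opposite sides of 0 at 1.38 and -0.16.

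The RNA of 11 regulators of this program, among them HOG1, MSN2 and MSN4, moved little beside the 6 genes. In WT 9 of them rose and 2 were not called, with a median of 0.56, from 0.06 (HOG1) to 2.32 (YAK1, a kinase that acts on stress and growth signals). In ckb12 7 rose and 4 were not called. None of the 11 was called in the strain comparison over all arrays, where values ran from -0.31 for HOT1 to 0.81 for NRG1, a repressor gene (limma adjusted p = 0.244).

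By the profile over all 9 arrays, each of the 5 complete genes had closer matches outside the 6 than within them. Far more features were compared outside the 6 than within, so this was likely for any gene and nothing is read from it. The ratios of RPA190, the largest subunit gene of RNA polymerase I, were most like those of HSP12 (Pearson's r = 0.970 over 9 arrays), followed by TEA1 (0.960) and ZPR1 (0.957). RPA190 fell in both strains, at -2.97 in WT and -3.71 in ckb12, so the likeness is one of array-to-array shape and not of direction. RTC3 was at place 14 for HSP12 at 0.937 and DDR2 at place 29 at 0.919, while HSP12 and GRE1 stood at -0.933. The closest to RTC3 were KRE33 (0.992), UTP10 (0.985) and HBN1 (0.976), of which KRE33 fell to -3.12 in WT and -4.10 in ckb12.

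DDR2 was most like ALG2 (0.979), ICL1 (0.968) and RPA190 (0.957). GRE1 was most like YJL206C (0.954), SSU1 (0.951) and RPL16A (0.939), with STF2 at place 412 (0.650), and STF2 was most like ERP3 (0.965), YPI1 (0.961) and YGL185C (0.960). These correlations include the strain difference that chose the genes and the differences in spread between arrays, and they are given without a test.

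The genes next to the 6 in the R64 annotation responded less than they did. No annotated gene overlapped any of the 6, whose coding lengths run from 186 bases (DDR2) to 507 bases (GRE1). The neighbour with the largest ratio was PAI3, beside SIP18, a proteinase inhibitor gene with 3.41 ± 0.57 (SD, n = 7) in WT and 4.16 ± 0.14 (SD, n = 2) in ckb12. PAI3 lay between 2.69 and 4.01 in WT, so both it and SIP18 had higher means in ckb12. FMP40, next to GRE1, had 2.58 in WT and 2.97 in ckb12, and MMT2 on its other side 1.01 and 1.25. RPF1, beside RTC3, had -2.26 and -2.72, and SPE2, beside DDR2, had -1.16 and -1.50, so neighbours of strongly raised genes also fell.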

How the data were processed

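RNA before and after salt was compared on 9 tiled 2-colour arrays, 7 of WT and 2 of ckb12. The authors labelled and hybridised the samples, normalized the signals and deposited log2 ratios, 1 value per feature and array, with missing values blank. The log2 base and the direction (stressed over unstressed) come from the study's methods and labels, since the table does not give either. The array build and the combining of tiles into features are not given in the sources used here. Spot intensities were not analysed here, so no ratio could be weighed by its signal, and precision is limited by the few arrays. According to the methods, dye orientation was varied for some samples, while the labels name 1 dye for all treated channels. No column of per-sample values was left unmapped.

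The ratios were fitted in R 4.3.3 with limma 3.58.1 (lmFit, eBayes) without further normalization. Features needed a value on all 9 arrays, also in fits of WT alone, whereas the paired fit needed one on its 4 arrays. P-values were adjusted by Benjamini-Hochberg over all features fitted, with a call at an adjusted p below 0.05. The WT response was tested on 7 WT arrays. The ckb12 response and the strain difference over all arrays came from group means of 9 arrays, and the paired strain difference from the 4 arrays of sets A and B, blocked on the set. Pairing comes from the set letters. Deviations of same-set arrays correlated at -0.0897 across features, those of arrays sharing replicate number 1 or 2 at 0.134, and the random-block fit gave a consensus correlation of 0.177. SIP18, blank on WT replicate 2, was taken from a fit that keeps missing values. The methods call the arrays biological replicates. Scripts were tested on simulated data.

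The 6 genes and the gene lists were chosen with earlier results of these data known, and the lists were written from memory. Named are the 6 genes, CKB1 and CKB2, paralogues, other hydrophilin genes, the extremes of each list, the 3 features most alike to each complete gene, and annotated neighbours. Symbols come from a RefSeq table of assembly R64, in which 6023 of 6942 IDs matched. Correlations between genes were tested by exact 2-sided permutation.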

Additional observations from a re-analysis of the deposited data

Results flagged for a closer look

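Among 12 groups of 6 or 7 arrays examined for a single distant array (the WT values of the 6 genes, paralogues, other hydrophilin genes and deleted genes), 1 stood apart. ROQ1 was at 2.05 on WT replicate 2, with the next WT array at 3.07, and chance alone sets apart about 1 group in 20.

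The strain differences of HSP12 (-2.59), RTC3 (-1.89) and DDR2 (-1.43), ckb12 minus WT, stand here as values only, since this contrast chose the genes. For the deleted genes the ratios differed between strains, by 1.31 for CKB1 (limma adjusted p = 0.0164) and 0.94 for CKB2 (limma adjusted p = 0.0206). Both genes are absent from ckb12, so their ratios there cannot be read as a salt response of their RNA.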

How the results depend on the processing

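Alternatives were a recentring, quantile normalization, equal median absolute deviation (MAD), missing values kept, robust eBayes, ORF-style features only, a change of at least 1, blocks and leaving out each array. The WT and ckb12 responses of the 6 genes were called in 174 of 174 alternatives, with a highest adjusted p of 0.00128 (limma, SIP18 in ckb12 without ckb12 replicate 1). Of 423 alternative values for the 6 genes, 406 kept their sign and either their side of the threshold or, where untested, a value within 1 SD between replicates, 4 moved further and 13 changed sign. Several settings, such as robust eBayes or ORF-style features only, cannot change a value, nor can leaving out a WT array change a ckb12 mean. The 406 therefore overstates how stable the values are. Calls of strain differences were not part of this count, and those of HSP12, RTC3 and DDR2 did not hold in every setting. With MAD scaling the paired differences became -2.84 (HSP12), -2.12 (RTC3), -1.65 (DDR2), 0.26 (GRE1), 0.00028 (SIP18, from 0.61) and -0.24 (STF2), and that of STF2 over all arrays -0.0044. Without single arrays, paired differences ran from -0.15 to 0.37 for STF2 and -0.16 to 1.38 for SIP18. Set-labelled minus unlabelled WT ran from -0.10 to 0.33 for HSP12, -0.38 to 0.070 for RTC3, -0.59 to 0.14 for DDR2 and -0.40 to 0.037 for GRE1, and was -0.37, -0.60, -0.69 and -0.79 in that order after quantile normalization and -0.19, -0.45, -0.49 and -0.36 with MAD scaling, with no gene called.

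Requiring a change of at least 1 lowered the counts of called features to 1761 in WT, 1945 in ckb12 and 35 for the strain difference over all arrays, which was 46 with MAD scaling, 465 where both ckb12 arrays lay over 2 SD from the WT mean, and 0 (without ckb12 replicate 1 or 2) to 142 (without WT replicate 12) without single arrays. The paired count was 178 with robust eBayes, 573 with ORF-style features only and 0 without the block. The count between set-labelled and unlabelled WT ran from 6 to 108 without single arrays. A replicate block by number, fitted only on replicates 1 and 2 of each strain, called 90 features. The set letter as a random block called 95 over all arrays. The paired fit has no residual degrees of freedom after an array is left out, so only values are given there, and keeping missing values adds no feature to it. The cause of these changes was not tested.

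Only 2 ckb12 arrays exist, and 3 of the 6 genes were chosen on the strain difference. Ratios give no level, and no signal over background was available to weigh a value.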
